A study of Rattus norvegicus with 24 samples.

Results

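The 24 arrays of left dorsal striatum were divided by their signal for Slc17a7, the vesicular glutamate transporter VGLUT1, and the 12 arrays high in it were compared with the 12 low in it across all other genes. In each treatment group the 4 arrays with the highest Slc17a7 formed the high side and the 4 with the lowest formed the low side, so all 24 of the 24 arrays were used. The arrays of a side were thus chosen by their Slc17a7 signal, and its own values are therefore a description with no test. The comparison asks which other transcripts were high or low on the same arrays. It is no test of the drug, and the animals were not assigned to a side.

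The RNA came from male Long Evans rats aged 80 to 90 days. Every rat had 1 injection on each of 5 days and was killed 24 h after the last. Saline rats received the vehicle each time, acute rats received MDPV (methylenedioxypyrovalerone, a synthetic cathinone that blocks dopamine and noradrenaline uptake) in the last injection, and chronic rats received it in all 5, at 1 mg/kg. Each group had 8 arrays. The tissue was dissected by hand from frozen brain, with no step that separates cell types. The series states 6 animals per group, and 4 arrays of each group share a title letter in pairs. Nothing in the labels says which arrays come from separate rats, so the p-values measure only the spread between arrays.

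Slc17a7 loads glutamate into synaptic vesicles, mainly in the excitatory neurons of cortex and hippocampus. The striatum is filled with their axon terminals, but its own neurons are nearly all GABAergic or cholinergic and use other transporters. The transcript stays largely in the cell bodies, which lie in the cortex that covers the dorsal striatum. Neurod6, a transcription factor of the same cortical neurons, is a second marker of them. In bulk tissue such as this, more cells of a type and more RNA per cell cannot be told apart.

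The array carried 1 probe for each of these markers, and they are shown because the division rests on the first and its closest check is the second. Both are 60 bases long, written 5′ to 3′ as the array's design gives them.

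Slc17a7: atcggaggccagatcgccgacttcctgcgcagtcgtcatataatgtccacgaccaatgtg

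Neurod6: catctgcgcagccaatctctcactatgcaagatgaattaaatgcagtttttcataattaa

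In rat build rn4, the coordinates in the file headers, the Slc17a7 probe lies at chr1:95649107-95649166 and the Neurod6 probe at chr4:84476853-84476912. The G and C content was 55.0% for the first and 35.0% for the second. Strand, exon and UTR were not given with the probes.

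Values are log2 signals relative to the 75th percentile of the same array, so 75% of an array's spots lie below 0, and a difference of 1 is a doubling. The share of its 58717 spots that an array measured well above background was 50.7% to 71.3%. Signals were 6.45 to 10.4 times their background at the median, and no spot was saturated. Striatal projection neuron genes were bright on every array: Ppp1r1b, their dopamine-regulated phosphatase inhibitor, was never below 3.10. Markers of the labelled tissue were thus present on all 24 arrays.

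Slc17a7 itself was highest on chronic replicate 2 at -2.53 and lowest on chronic replicate 8, where its value of -8.50 was not well above background. The mean was -3.09 ± 0.41 on the high side and -5.09 ± 1.55 on the low side (SD, n = 12 each), so the low side was much the more variable. In the saline group the high arrays read -2.84, -3.03, -3.33 and -3.35, and the low arrays -4.12, -5.07, -6.22 and -7.35. The acute arrays read -2.81, -3.47, -3.51 and -3.81 on the high side and -3.90, -4.58, -4.82 and -5.25 on the low side. Chronic arrays read -2.53, -2.56, -2.73 and -3.16 on the high side and -3.40, -3.60, -4.23 and -8.50 on the low side.

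The sides were therefore unequally separated. The lowest high array and the highest low array differed by 0.77 in the saline group, by 0.24 in the chronic group and by 0.09 in the acute group. The mean difference between sides was 2.55 in saline, 2.19 in chronic and 1.24 in acute arrays. The probe was well above background on all 12 high arrays and on 9 of the 12 low ones. The 3 exceptions were saline replicates 4 and 5 and chronic replicate 8, whose low values are bounds rather than levels. Sides were also unequal over the slides: slide 1 held 4 high and 4 low arrays, slide 2 held 3 and 5, and slide 3 held 5 and 3.

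**Figure D1:**
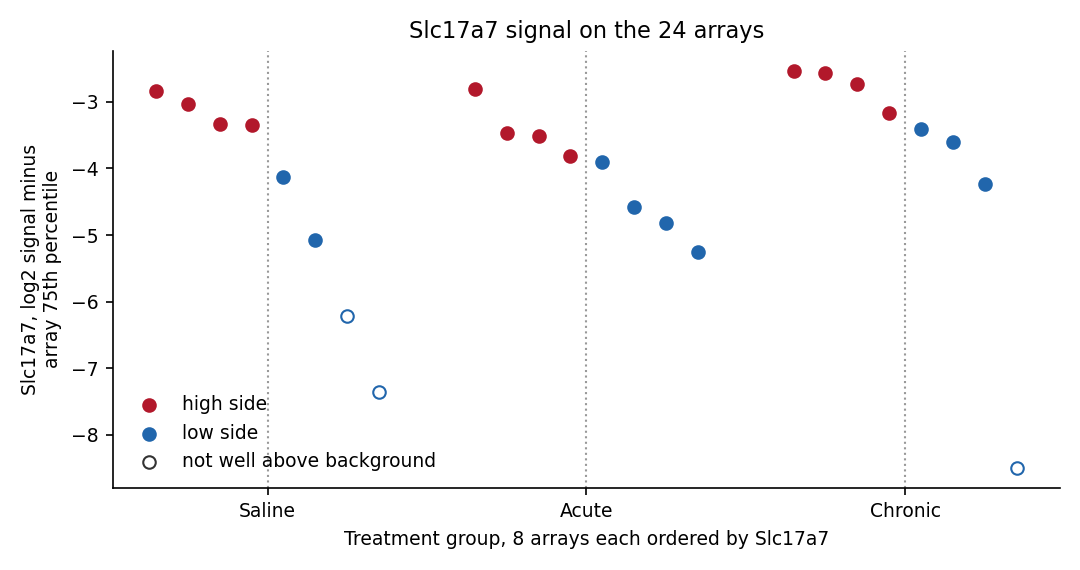
Slc17a7 signal on each of the 24 arrays (y axis, log2 signal minus the 75th percentile of the array), ordered within each treatment group (x axis), with the high side in red, the low side in blue and a dotted line between them. Open circles mark the 3 arrays on which the probe was not well above background, at -6.22, -7.35 and -8.50, and the gap at the dotted line is 0.77 in saline, 0.09 in acute and 0.24 in chronic arrays.

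Of 20901 genes tested, 155 were higher on the high side (0.742% of the genes) and 29 lower (0.139%) at an adjusted p under 0.05 (limma, treatment group as a block, Benjamini-Hochberg over all genes). Of the lists, presynaptic vesicle release gave 7 higher genes of 39 (median difference 0.19) and cortical glutamatergic neurons gave 4 of 19 (median 0.84). None of 34 striatal projection neuron genes passed, and 30 of them had lower values on the high side (median -0.22). Of all 20901 genes tested, 9534 had lower values there. The median difference of the 155 was 0.66, with a range from 0.23 to 2.18, against 0.02 over all genes tested. The 29 had a median of -0.36 and a range from -0.73 to -0.22. All 184 lay close to the threshold, with adjusted p between 0.0433 and 0.0498, and 106 of the 155 shared the smallest value. At an unadjusted p under 0.05 there were 2233 higher and 2015 lower genes, 20.3% of those tested.

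Which genes pass depends on single arrays. With 1 array left out in turn, the higher count was 0 for 14 of the 24 arrays: saline replicates 2, 3, 5, 6, 7 and 8, acute replicates 2, 3 and 4, and chronic replicates 1, 2, 3, 4 and 6. It was 43 without acute replicate 1, 24 without chronic replicate 8, 125 without saline replicate 1 and 194 without acute replicate 6. It rose to 715 without acute replicate 5, the low array nearest the high side. It was 270 without acute replicate 7, 249 without acute replicate 8, 244 without chronic replicate 5, 243 without saline replicate 4 and 233 without chronic replicate 7. The lower count was 0 in 15 of these fits, the 14 above and the one without chronic replicate 8, and 552 at most. All 155 and all 29 kept their sign in each of the 24 fits. These genes were called over the same arrays, of which each fit drops only 1, so the kept signs are no independent support. Without the 3 arrays on which Slc17a7 was dim, 24 genes were higher and 1 lower, 20 of the 24 being among the 155.

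**Figure D2:**
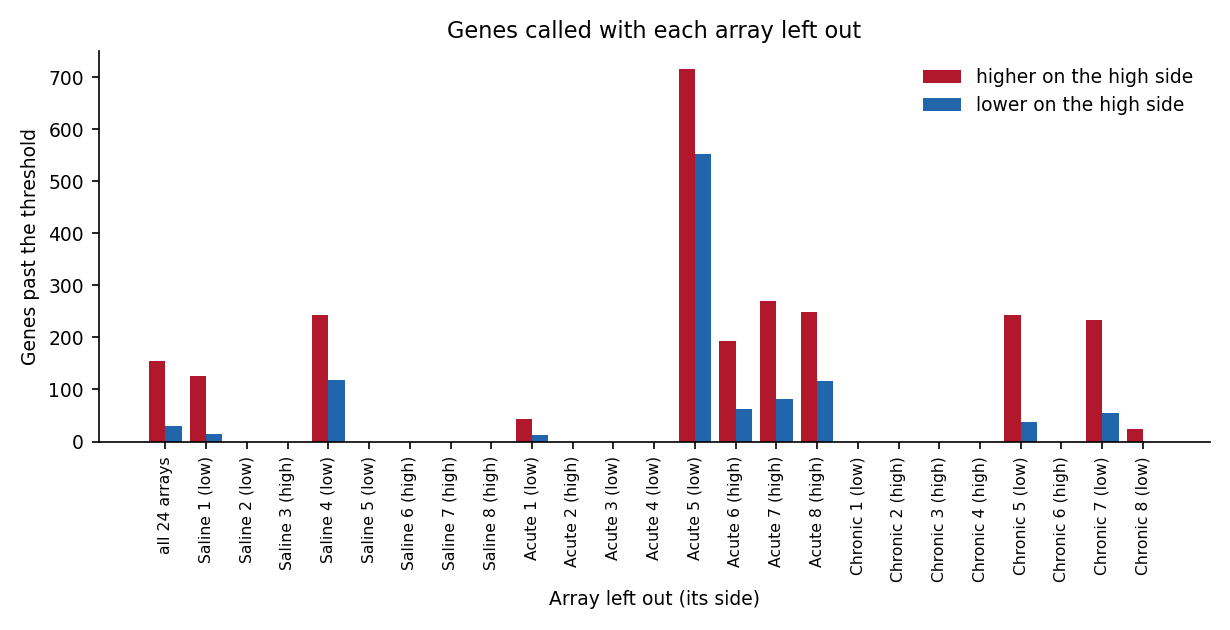
Number of genes past the threshold (y axis, genes at a limma adjusted p under 0.05) with all 24 arrays and with each array left out (x axis, with its side in brackets), for genes higher (red) and lower (blue) on the high side. The higher count is 155 with all arrays, 0 for 14 of the omissions, and 715 without acute replicate 5.

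Neurod6 followed Slc17a7 closely without passing the threshold. On the high arrays it ran from -1.48 to -0.37 with a median of -1.001, and on the low arrays from -4.58 to -1.32 with a median of -1.91. The ranges overlapped at their ends, and all 12 high arrays stood above the low side's median. The difference was 1.35 ± 0.34 (SE, 12 arrays a side), a 2.55-fold higher signal, with a limma adjusted p of 0.055. It was 2.10 within saline, 1.39 within chronic and 0.55 within acute arrays, the same order as the gaps in Slc17a7 itself.

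Neurod2, a related transcription factor, ran from -1.39 to -0.27 (median -0.84) on the high arrays and from -4.89 to -0.68 (median -1.88) on the low ones. Its difference was 1.46 ± 0.39 (limma adjusted p = 0.067), and a second Neurod2 probe gave 1.64. Fezf2, which specifies subcortical projection neurons, differed by 1.18 ± 0.31 (limma adjusted p = 0.063). For Tbr1, a factor of deep-layer neurons, the difference was 1.38 ± 0.38 (adjusted p = 0.077), and its probe was well above background on 7 high and 2 low arrays only. These 4 transcription factors were spread widely on the low side, where their SDs were 1.02 to 1.38, against 0.31 to 0.81 on the high side. Emx1 was well above background on 0 of 24 arrays and was not tested.

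Several secreted, vesicular and signalling genes of cortical neurons did pass. Nrn1, a small membrane-anchored protein that promotes neurite growth, ran from -1.77 to -0.58 (median -1.44) on the high arrays and from -4.50 to -1.48 (median -2.65) on the low ones. The ends of the ranges overlapped, and the difference was 1.45 ± 0.29, a 2.72-fold higher signal (limma adjusted p = 0.0433). Slc30a3, the transporter that loads zinc into glutamatergic vesicles, ran from 0.39 to 1.94 (median 1.18) and from -2.77 to 0.99 (median -0.51). It differed by 1.67 ± 0.38 (3.19-fold, limma adjusted p = 0.0433), and its second probe gave 1.73. Mef2c, an activity-dependent transcription factor, differed by 0.70 ± 0.15 and Sv2b, a vesicle glycoprotein, by 0.70 ± 0.16.

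Counted as lists, 18 of the 19 tested markers of cortical glutamatergic neurons were higher on the high side and 4 passed, with 12 at an unadjusted p under 0.05. Of all 20901 genes tested, 11367 were higher, 155 of them past the threshold and 2233 at an unadjusted p under 0.05. The median difference of the 19 was 0.84, against 0.02 over all genes. It was 1.17 in saline, 0.84 in chronic and 0.35 in acute arrays, against 0.01, 0.12 and -0.05 over all genes. The mean level of the list ran from -0.91 to -0.28 on the high arrays and from -2.53 to -0.64 on the low ones. Some members differed less clearly. Lamp5, a membrane protein of superficial neurons, differed by 0.08 (95% interval -0.24 to 0.41), and Camk2a, the calcium/calmodulin kinase that striatal neurons also express, by 0.49 (-0.05 to 1.04). Dimmer Camk2a probes gave 0.30 ± 0.14 and 0.26 ± 0.11.

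Lists of layer markers had smaller medians. Of 16 upper-layer genes 14 were higher, with a median of 0.20, and of 17 deep-layer genes 12 were higher, with a median of 0.08. Of all 20901 genes tested, 11367 were higher, with a median of 0.02 over all. In each layer list 1 gene passed, where 0.742% of all genes tested were called higher. Cux2, a homeobox factor of upper layers, ran from -1.36 to 0.38 (median -0.46) on the high arrays and from -1.94 to -0.62 (median -1.39) on the low ones, a difference of 0.82 ± 0.18. A second, dim Cux2 probe gave 0.25 ± 0.27. Rprm, a p53-dependent cell cycle inhibitor with a deep-layer pattern in cortex, ran from -0.41 to 1.16 (median 0.34) and from -2.95 to 0.40 (median -0.97), a difference of 1.31 ± 0.30. Rorb, the layer 4 nuclear receptor, differed by only 0.01 (95% interval -0.24 to 0.27). Of the 7 tested genes of claustrum and endopiriform cortex, which lie beside the striatum, none passed. Their median was 0.33, and Nr4a2, their best-known nuclear receptor, differed by 0.87 ± 0.35 (limma adjusted p = 0.176). A second Nr4a2 probe gave 1.18 ± 0.35.

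**Figure D3:**
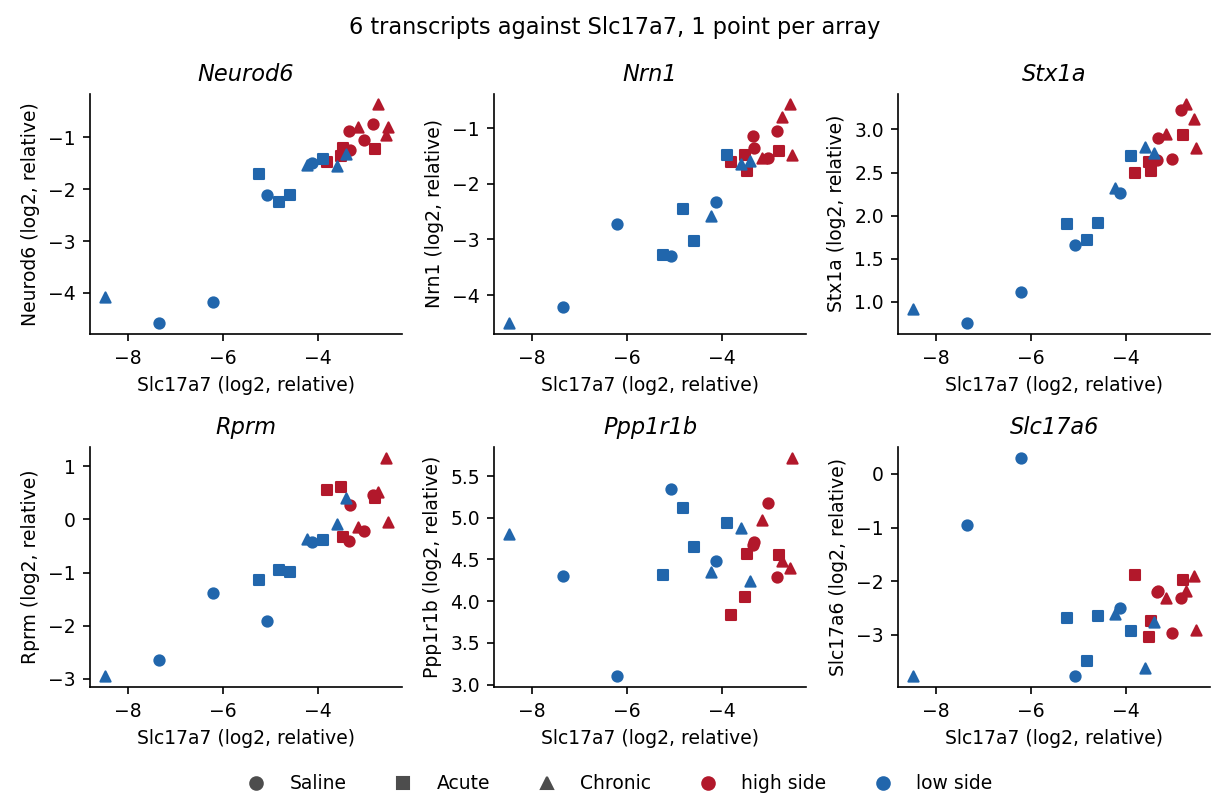
Signal of 6 transcripts (y axis) against Slc17a7 (x axis), both as log2 signal minus the 75th percentile of the array, 1 point per array, with treatment group by shape and side by colour. Neurod6, Nrn1, Stx1a and Rprm have their low values on arrays at the lower end of Slc17a7, while the sides overlap widely for Ppp1r1b (difference 0.08) and Slc17a6 (0.23).

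Of the genes of the presynaptic release machinery, 7 of 39 were higher and none lower, against 0.742% and 0.139% of all genes tested. In this list 29 of 39 lay above 0 (median 0.19), as did 11367 of all 20901 genes tested. The count of 7 is the largest of any list, but lists differ in length. The shorter list of cortical glutamatergic neurons gave 4 of 19, and Sv2b is in both. Stx1a, a plasma membrane SNARE of vesicle fusion, ran from 2.50 to 3.29 (median 2.84) on the high arrays and from 0.75 to 2.80 (median 1.91) on the low ones. All 12 high arrays exceeded the low side's median, and the difference was 0.95 ± 0.20 (1.93-fold, limma adjusted p = 0.0433). Syt17, an atypical synaptotagmin, ran from -1.35 to 0.41 (median -0.46) and from -2.44 to -0.72 (median -1.51), a difference of 1.10 ± 0.20. Doc2a, a calcium sensor for spontaneous release, differed by 0.88 ± 0.21 and Syp, the vesicle protein synaptophysin, by 0.69 ± 0.14. Syt1, the main calcium sensor of fast release, differed by 0.35 ± 0.08. The members just named and Sv2b are the rule's 6 of the 7, and the remaining one is Syn1 (0.73), a vesicle-tethering synapsin chosen after its value was seen.

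Within the acute arrays the same genes separated less. Stx1a differed there by 0.59, Syt17 by 0.66, Sv2b by 0.07 and Syt1 by 0.03, whereas the saline values were 1.42, 1.23, 1.17 and 0.58. The interaction of side and treatment group did not pass for any of these 4 genes (limma adjusted p from 0.088 to 0.516). The median of the whole list was 0.28 in saline, 0.35 in chronic and 0.02 in acute arrays.

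Secreted and calcium-binding neuronal proteins followed, with 5 of 28 higher, none lower, and a median of 0.31. Of all genes tested 0.742% were called higher. Nptxr, the transmembrane pentraxin receptor that gathers AMPA receptors at synapses, ran from 0.39 to 2.23 (median 1.17) on the high arrays and from -1.51 to 1.01 (median 0.01) on the low ones. It differed by 1.26 ± 0.24 (2.40-fold, limma adjusted p = 0.0433). Olfm1, a secreted glycoprotein of brain, differed by 1.08 ± 0.21 and C1ql3, a secreted synaptic organiser, by 1.12 ± 0.25, with 2 further C1ql3 probes at 1.09 and 1.06.

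Bdnf was among them. This neurotrophin reaches the striatum as protein made largely in cortical neurons, and its transcript is scarce in striatal cells. It ran from -4.91 to -3.71 (median -4.31) on the high arrays and from -7.71 to -4.49 (median -5.22) on the low ones, and its probe was well above background on 10 arrays of each side. The difference was 1.26 ± 0.29 (2.40-fold, limma adjusted p = 0.045), with 1.67 in saline, 1.65 in chronic and 0.46 in acute arrays. Immediate-early genes showed no such difference. Fos differed by 0.00 (95% interval -0.51 to 0.51), Arc by -0.18 (-0.62 to 0.27) and Egr1 by 0.11 (-0.31 to 0.53). Bdnf was the only 1 of 28 activity-regulated genes to pass, where 0.742% of all genes tested were called higher.

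Among ion channels and receptors the calls were few, beside the 0.742% of all genes tested that were called higher. Of 51 potassium channel genes 3 were higher: Kcnj9, a G protein-gated inward rectifier subunit, by 0.76 ± 0.16, Kcnc4, a voltage-gated channel subunit, by 0.76 ± 0.17, and Kcnip3, a calcium-binding channel partner, by 0.54 ± 0.13. Gabra5, the alpha-5 subunit of GABA-A receptors, rich in hippocampus and deep cortex, was higher by 0.67 ± 0.14 and was 1 of 20 in its list. It differed by 1.07 in saline and 0.96 in chronic but by 0.04 in acute arrays (limma adjusted p for that difference between groups 0.067). None of 24 glutamate receptor genes and none of 37 postsynaptic genes passed, with medians of 0.04 and 0.10. Cntnap4, a synaptic adhesion protein of the neurexin superfamily, was higher by 0.66 ± 0.15 and was the only 1 of 43 adhesion and guidance genes to pass.

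Of the 12 genes with a symbol and the smallest p in the higher direction, Syt17 and Nptxr are list members given above. The others lay outside these lists. Fabp3, a fatty acid-binding protein, ran from -0.80 to 0.01 (median -0.31) on the high arrays and from -1.03 to -0.41 (median -0.86) on the low ones, a difference of 0.47 ± 0.08. Tp53i11 differed by 0.87 ± 0.16 and Miat, a long non-coding RNA of neurons, by 0.76 ± 0.14. Glo1, glyoxalase 1, which detoxifies methylglyoxal, differed by only 0.28 ± 0.05 but with little spread on either side, 0.11 and 0.13 (SD). Cnrip1, which binds the cannabinoid receptor CB1, differed by 0.57 ± 0.11, Serpini1, the brain protease inhibitor neuroserpin, by 0.63 ± 0.12, and Vash1 by 0.55 ± 0.11. Ccdc85a differed by 0.76 ± 0.14. Sln, the calcium pump regulator sarcolipin, differed by 1.41 ± 0.26 and Fap, a cell surface peptidase, by 1.47 ± 0.28, but both were dim. Fap was well above background on 9 high and 4 low arrays, and Sln on 11 and 9.

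No overlap between the 12 high and the 12 low arrays was found for 1 gene in the higher direction (0.00478% of the genes) and for 0 in the lower. That gene, Socs2, a suppressor of cytokine signalling, is named here because of this value. It ran from -5.64 to -4.98 on the high side and from -7.39 to -5.67 on the low side, and was well above background on 8 and 5 arrays, so it is a dim probe.

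**Figure D4:**
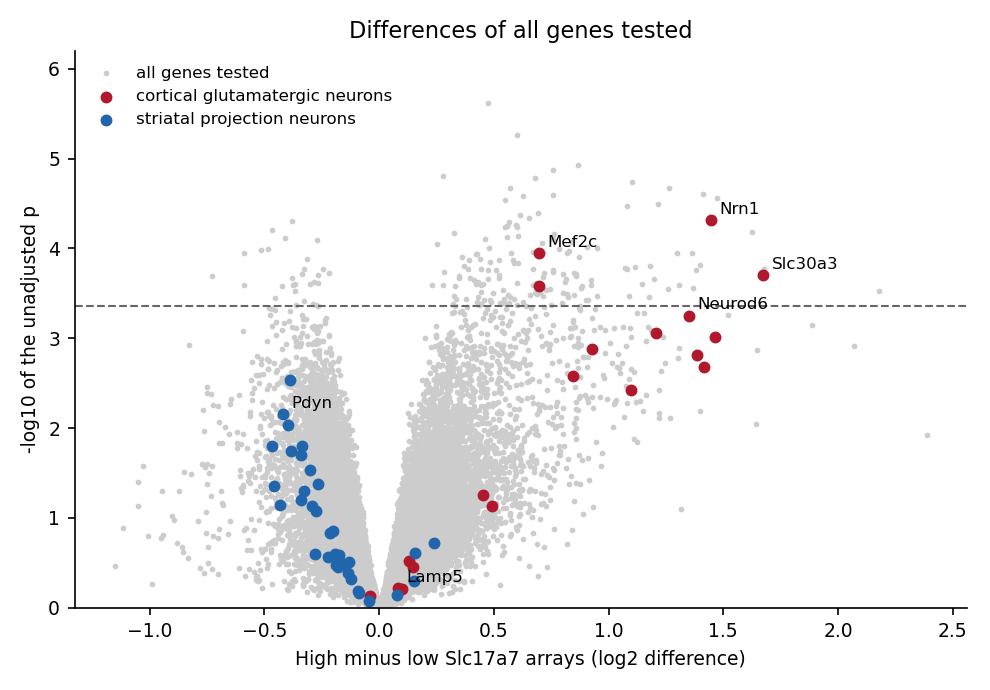
Difference between high and low arrays (x axis, log2) against -log10 of the unadjusted limma p (y axis) for the 20901 genes tested, with cortical glutamatergic markers in red and striatal projection neuron markers in blue, and the dashed line at the last gene with an adjusted p under 0.05. Of the red points 18 of 19 lie right of 0 and 4 above the line, and of the blue points 30 of 34 lie left of 0 and none above the line. Of all 20901 genes, 11367 lie right of 0 and 9534 left of 0.

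The gene most like Slc17a7 over the 24 arrays, treatment group means removed, was Crhbp among genes with a symbol (r = 0.967), the binding protein of corticotropin-releasing hormone. The next were Rtn4r, the Nogo receptor, at 0.962, Stx1a and Ttc9b at 0.956, and Olfm1 at 0.952. Nxph3, a neurexin ligand, reached 0.946, Tspan17 0.945, Hs3st2, a heparan sulfate sulfotransferase, 0.943, Neurod6 0.938 and Neurod2 0.936. These are descriptions over arrays that share 1 scaling per array, and the sides and Slc17a7 enter both. The 3 dim arrays stretch the axis. Without them r was 0.896 for Crhbp, 0.923 for Rtn4r, 0.906 for Stx1a, 0.844 for Neurod6, 0.795 for Neurod2 and 0.725 for Nxph3. Crhbp ran from -2.61 to -1.86 (median -2.18) on the high arrays and from -3.92 to -2.25 (median -2.93) on the low ones, and differed by 0.76 ± 0.17 (limma adjusted p = 0.0433). Rtn4r differed by 1.30 ± 0.28, Tspan17 by 0.86 ± 0.19 and Ttc9b by 0.69 ± 0.16, all past the threshold, while Hs3st2 at 1.17 ± 0.30 (adjusted p = 0.061) and Nxph3 at 1.03 ± 0.33 (adjusted p = 0.109) were not.

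The 29 lower genes differed by less. Ggh, a lysosomal enzyme that trims folate polyglutamates, ran from 0.11 to 0.69 (median 0.31) on the high arrays and from 0.46 to 1.10 (median 0.81) on the low ones. None of the 12 high arrays exceeded the low side's median, and the difference was -0.38 ± 0.08, a 1.30-fold lower signal (limma adjusted p = 0.0433). Cacna2d2, an auxiliary calcium channel subunit, differed by -0.51 ± 0.11 and Slitrk6, a neuronal transmembrane protein, by -0.59 ± 0.13. A second, dim Cacna2d2 probe gave -0.12 ± 0.19. Entpd2, an ectonucleotidase, differed by -0.27 ± 0.06, Errfi1, an inhibitor of EGF receptor signalling, by -0.33 ± 0.07, and Hdac11, a histone deacetylase, by -0.22 ± 0.05. Timm8a1 at -0.47, Osbpl9 at -0.41, Tbc1d31 at -0.49, Paqr3 at -0.33, Zc3h10 at -0.27 and Srek1ip1 at -0.24 complete the 12 of smallest p. The other Paqr3 probe, near background, gave 0.08. None of the 29 was a member of any of the 31 gene lists.

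Striatal projection neuron markers leaned the other way from the cortical ones without passing. Of 34, 30 were lower on the high side, with a median of -0.22, and 10 were lower at an unadjusted p under 0.05. Of all 20901 genes tested, 9534 were lower, 2015 of them at such a p. The mean level of this list ran from 0.33 to 1.01 (median 0.64) on the high arrays and from -0.25 to 1.40 (median 0.97) on the low ones. Pdyn, the dynorphin precursor of the direct pathway, ran from 1.18 to 2.11 and from 1.24 to 2.69, a difference of -0.42 ± 0.14 (limma adjusted p = 0.123). Drd1, the direct pathway's dopamine receptor, differed by -0.34 ± 0.14 (adjusted p = 0.175). Drd2 differed by -0.19, Adora2a by -0.18, Tac1 by -0.17 and Penk by -0.14. Ppp1r1b, high in both pathways and also present in cortex, differed by 0.08 (95% interval -0.37 to 0.52). The list's median was 0.01 in saline, -0.38 in acute and -0.15 in chronic arrays. Its lowest array, saline replicate 4, is on the low side, and without the 3 dim arrays, of which it is 1, the median was -0.36.

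Transcripts of other tissues beside the dorsal striatum also varied between arrays. Markers of choroid plexus, the ventricular tissue that makes transthyretin, had a mean level from -5.02 to -0.97 on the high arrays and from -4.53 to 0.16 on the low ones. None of the 11 tested passed, and 9 were lower, as were 9534 of all 20901 genes tested. The choroid median was -0.42, with -0.59 in saline, 0.92 in acute and -1.58 in chronic arrays. The 3 highest levels, 0.16, 0.16 and -0.70, were on the 3 arrays dim in Slc17a7. Without those arrays the choroid median was 0.43, the opposite sign, and the cortical glutamatergic median was 0.48. Ttr ran from -5.62 to 6.28 on the high side and from -5.05 to 6.22 on the low side, and differed by -0.99 ± 1.62. With Ttr as a covariate, 27 genes were higher and 0 lower (limma), and the cortical glutamatergic median was 0.77. With the striatal list level as a covariate the counts were 169 and 99. The part of these tissues in the differences was not tested.

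The glutamate transporter of thalamus and other subcortical sites, Slc17a6, did not differ clearly between the sides. It ran from -3.05 to -1.89 (median -2.26) on the high arrays and from -3.78 to 0.30 (median -2.73) on the low ones, where saline replicate 4 was highest. The difference was 0.23 ± 0.34, with -0.69 in saline, 0.52 in acute and 0.86 in chronic arrays. With treatment group means removed, r between Slc17a6 and Slc17a7 was -0.03 over all arrays. It was 0.54 without the 3 arrays dim in Slc17a7, saline replicate 4 among them. None of 15 tested GABA interneuron genes passed. Of these 9 had higher values on the high side, 5 of them at an unadjusted p under 0.05. Among all 20901 genes tested these counts were 11367 and 2233. The differences of the 15 ran from -0.45 to 1.11 with a median of 0.14. Sst differed by 0.05 (95% interval -0.12 to 0.22), Npy by 0.23 (0.03 to 0.44, limma adjusted p = 0.192), Pvalb by 0.35 (-0.22 to 0.92) and Gad1 by -0.14 (-0.33 to 0.06). None of 9 cholinergic interneuron genes passed, with 4 lower at an unadjusted p under 0.05, as were 2015 of all 20901. The median of the 9 was -0.27. Chat, the acetylcholine-synthesising enzyme of these interneurons, differed by -0.30 (-0.57 to -0.03, limma adjusted p = 0.202).

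Glial, vascular and housekeeping lists held no gene past the threshold. Their medians were -0.05 for 15 astrocyte, -0.14 for 16 myelin, -0.07 for 9 oligodendrocyte precursor, -0.04 for 14 microglial, -0.03 for 18 endothelial and mural, and 0.16 for 15 meningeal genes. Gfap differed by -0.01, Mbp by 0.08, Dcn by -0.29 and Hbb by 0.08. Mitochondrial respiratory chain genes had a median of 0.01 over 35. Of 49 cytosolic ribosomal protein genes, 44 were lower, with a median of -0.09, 13 of them at an unadjusted p under 0.05. Of all 20901 genes tested, 9534 were lower, 2015 of them at such a p. The ribosomal median was -0.18 in saline, -0.23 in chronic and 0.09 in acute arrays.

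**Figure D5:**
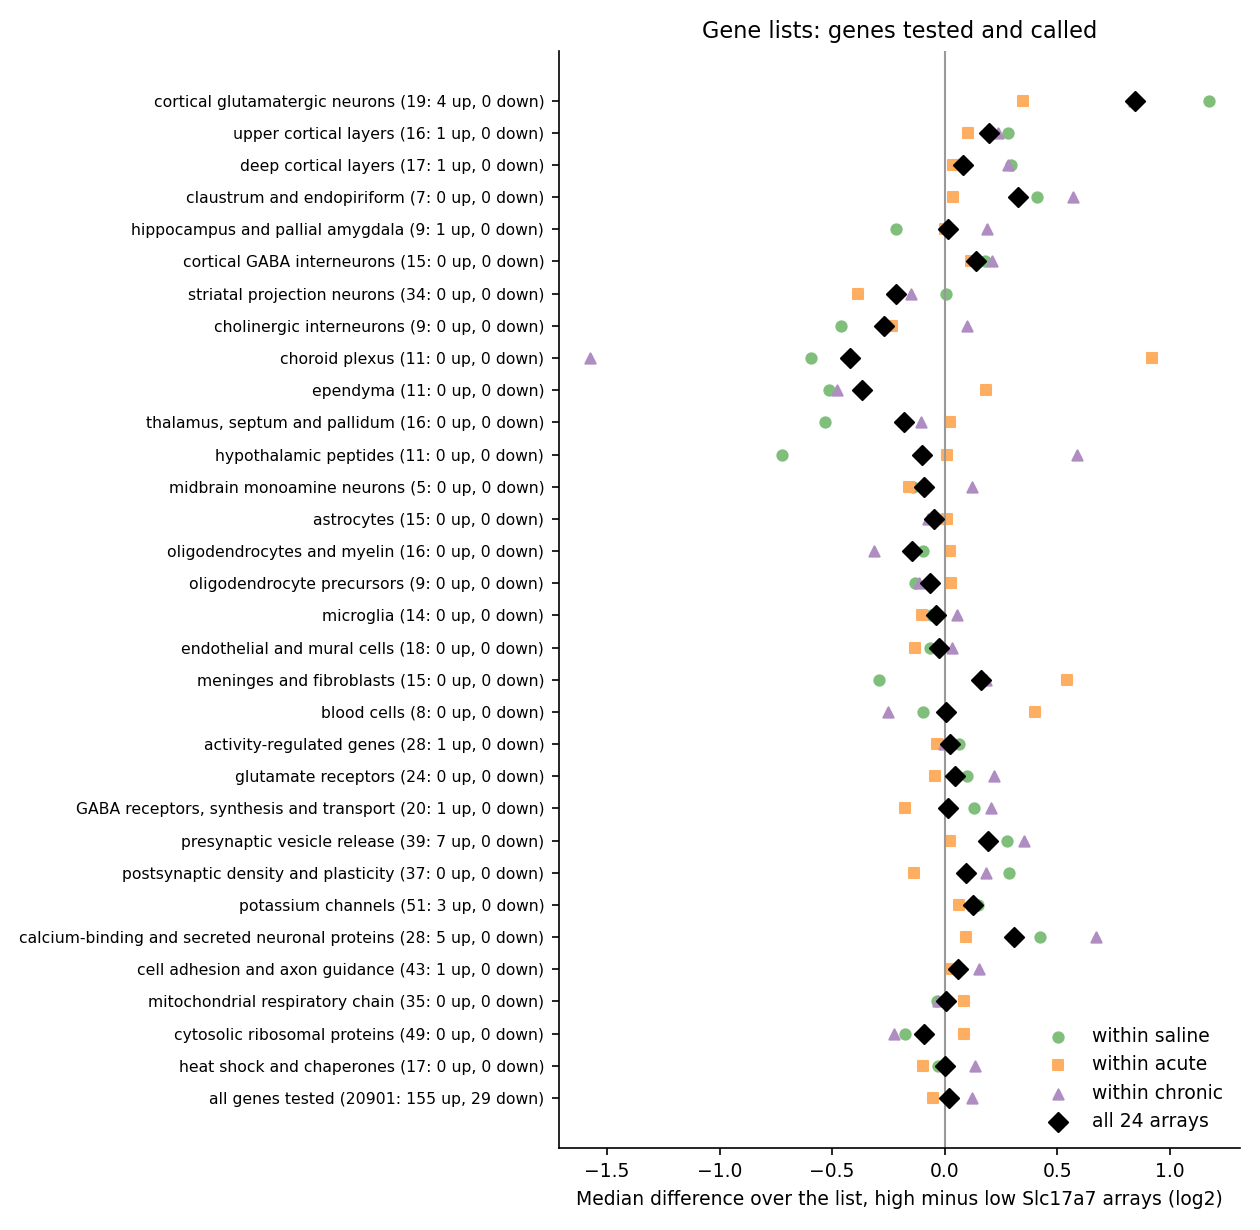
Median difference between high and low arrays (x axis, log2) for 31 gene lists and all genes tested (y axis, with the number of genes tested and the numbers called higher and lower), over all 24 arrays (black diamonds) and within each treatment group (coloured symbols). Cortical glutamatergic neurons stand furthest right at 0.84, with 1.17 in saline and 0.35 in acute arrays, while choroid plexus runs from -1.58 in chronic to 0.92 in acute arrays.

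The called genes shared their direction over the treatment groups, while most genes tested did not. Of the 155 higher genes, 154 had a positive difference in each of the 3 groups, and all 29 lower genes were negative in each. They were called over these same arrays, so this is no independent support. Of all 11367 genes with a positive difference over the 24 arrays, 2690 were positive in each group and 4554 in the acute arrays. Of the 9534 with a negative one, 2569 were negative in each group. The medians of the 155 were 0.81 in saline, 0.75 in chronic and 0.37 in acute arrays, in the order of the Slc17a7 differences of 2.55, 2.19 and 1.24. A direct test of the difference between groups called 44 genes (0.211%; limma F test on the interaction of side and group), and 5022 had an unadjusted p under 0.05. None of the 44 was among the 184. In 37 of the 44 the acute difference had the opposite sign to both others, and 23 of them were not well above background on all 24 arrays, as were 32.2% of all genes tested.

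The 5 with the smallest p show the pattern. Nxt2, an mRNA export factor, differed by -0.46 in saline, -0.76 in chronic and 0.22 in acute arrays (limma adjusted p = 0.0141). Adat2, a tRNA deaminase, differed by 0.48, 0.58 and -0.20 in the same order (adjusted p = 0.0141). Olr132 and Olr775, olfactory receptor genes, and Il36rn, an interleukin antagonist, had acute values of -1.02, -0.94 and -0.89 and chronic values of 0.77, 0.96 and 0.72, and were near background. The share of spots well above background also differed between sides. It was 60.8% on acute high and 66.6% on acute low arrays, 66.7% and 60.7% in the chronic group, and 59.2% and 63.2% in the saline group. With that share as a covariate, chosen after seeing the data, 0 genes passed the interaction test, and 0 genes passed for high against low (smallest limma adjusted p = 0.056), with 2383 higher and 2048 lower at an unadjusted p under 0.05. All 155 and 29, called over these same arrays, kept their sign there. Whether array quality had a part in the 44 was not tested.

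Pairs of arrays that share a title letter, always within 1 treatment group, were also set side by side. Of the 6 pairs, 5 had 1 array on each side, and the sixth, letter D in the saline group, had both on the low side. Slc17a7 differed within pairs by 0.87 for letter A, 5.77 for B, 0.80 for C, 2.28 for D, 1.01 for E and 1.74 for F. In all 6 pairs the array with more Slc17a7 was the one whose title ends in 1, and the other title ends in 0. The labels do not say what this digit stands for. Within pairs its part cannot be told apart from that of Slc17a7. Neurod6, Neurod2, Nrn1, Stx1a and Crhbp had higher values on the array with more Slc17a7 in 6 of 6 pairs. The genes were named or called over these same arrays, so the pairs are a description and no independent support. For Neurod6 the within-pair difference ran from 0.24 to 3.71. Slc30a3 and Rprm were higher in 5 of 6, the exception being letter A, at -0.47 and -0.46. Of the 155 higher genes, between 117 (letter A) and 153 (letter B) had higher values on that array, while 46.8% to 61.2% of all genes tested did. Of the 29 lower genes, 28 or 29 had lower values there for letters A, B and C, 25 for F, 21 for D and 16 for E. A fit within letters called 0 higher and 0 lower genes (limma), with 899 and 299 at an unadjusted p under 0.05. If a letter stands for 1 rat, arrays of 1 animal then lay on both sides. The labels do not say so.

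Slides gave the same direction when treatment group was ignored: all 155 were positive and all 29 negative in each of the 3 slides. The genes were called over these same arrays, so this is no independent support. On slide 3 such a comparison also mixes side with treatment group. Alone and with the group term, slide 1 called 0 and 0 genes, slide 2 called 0 and 0, and slide 3 called 2 higher and 4 lower (limma). At an unadjusted p under 0.05, slide 1 had 1314 higher and 1242 lower genes and slide 2 had 2793 and 1553. On slide 3 both saline arrays are on the high side and both chronic arrays on the low side, so the comparison there rests on acute replicate 5 against 3 acute arrays. There 55 of the 155 and 10 of the 29 kept their sign. With slide as a block over all arrays the counts were 128 and 25.

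Each treatment group gave 4 arrays to each side, so adding the side to the fit could not move a treatment difference of a gene with no missing value. The largest change of any gene was 0.101. Adding the side left the counts at 0 for acute against saline, chronic against saline and chronic against acute (limma). Unadjusted p-values under 0.05 numbered 329, 572 and 739 with the side in the fit, and 298, 484 and 532 without it. The median SE of a treatment difference was 0.133 with it and 0.137 without it.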

How the data were processed

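Total RNA labelled with Cy3 was hybridised to 24 Agilent arrays on 3 slides. Per the file headers, the authors' scanner files give a processed signal as an intensity, corrected for background and spatial trend within the array, with mean and background intensities and flags of 0 or 1 (other columns, used as deposited). Agilent Feature Extraction 10.7 is named in the submitters' processing notes. The deposited value table holds log2 values whose making is not given in the sources used here.

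From each array's log2 processed signals its own 75th percentile, taken over spots other than controls, was subtracted. Outlier spots and control spots were left out, with 117 missing values among the genes tested. A fit drops a missing value. Kept probes (26259 of 45598) had to stand well above background in 1 group or more, on a share of 0.5 of its arrays or higher. A gene was represented by its brightest kept probe: 20901 genes, 12759 with a symbol as the array's design gives it, and 4187 with more than 1 kept probe. Slc17a7 was left out of tests. Sides were compared with limma 3.58.1 (lmFit, eBayes) with treatment group as a block, and p-values were adjusted by Benjamini-Hochberg over all genes at a threshold of 0.05. A 95% interval is the fit's, and SEs are moderated. The fit was tested on simulated data. The number of arrays limits the precision, and the median SE was 0.11. Other genes' values did not choose the sides but share the arrays and their scaling with Slc17a7.

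The genes named are the 12 of smallest p in each direction with a symbol, up to 6 called members of each of 31 lists, 35 given whatever their values, the 10 of highest r with Slc17a7 and the 5 of smallest interaction p. A gene of the 35 is not reported here. Any other is said to be chosen after its value was seen. The division, the members and the lists were chosen with earlier results of these data known. Alternatives were other scalings, filters and moderation, other units, blocks and covariates, slides alone and arrays left out. Fits ran in R 4.3.3 (statmod 1.5.0 for the random block). Tables and plots were made in Python 3.11.15 with matplotlib 3.10.9, pandas 2.3.3 and numpy 2.4.6.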

Additional observations from a re-analysis of the deposited data

Results flagged for a closer look

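In 255 sets of 8 arrays (each gene reported, in each treatment group), 23 had 1 array standing apart from the other 7 by Dixon's criterion at the 95% level. For independent genes chosen without regard to their values, chance would give about 1 in 20, or 12.8. The named genes are not independent of each other. They include Slc17a7, and many were named for their difference between sides or their r with it. Arrays extreme in Slc17a7 were thus partly selected to stand apart, so the count cannot be set against chance.

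Chronic replicate 8 stood apart at the low end in 14 of the 23 cases. It read -8.50 for Slc17a7, -4.08 for Neurod6, -4.31 for Neurod2, -4.48 for Fezf2, -2.95 for Rprm, -2.49 for Slc30a3 and 0.91 for Stx1a. The other genes lowest there were Doc2a at -3.78, Crhbp at -3.83, Rtn4r at -4.63, Nxph3 at -7.14, Hs3st2 at -2.47, Fap at -8.16 and Npy at 2.69. For Neurod6 the nearest chronic array read -1.56, and for Nxph3 it read -3.87. Without this array 24 genes were higher and 0 lower on the high side (limma), with 1741 and 1609 at an unadjusted p under 0.05. The same array had a mean choroid plexus level of 0.16, whose part was not tested.

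Saline replicate 4 was lowest of its group in Ppp1r1b (3.10) and Lamp5 (-2.17) and highest in Avp (2.60), a hypothalamic peptide gene. Acute replicate 8 was highest of its group in Avp (-0.62) and lowest in Camk2a (-2.25). Acute replicate 2 was lowest in Slitrk6 (-4.02) and highest in Syp (-1.17). Saline replicate 2 was lowest in Rorb (-1.48), and chronic replicate 4 was lowest in Drd2 (2.44).

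The difference between sides itself differed between treatment groups for Nxt2, Adat2 and Olr132 (limma F test, adjusted p = 0.0141 each) and for Il36rn and Olr775 (adjusted p = 0.0326 each).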

How the results depend on the processing

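The counts moved by more than 1.5 times under most alternatives, while the signs of the 155 and 29 genes changed on slide 3 alone (55 and 10 kept). Among the alternatives that keep 1 value per gene, every other one kept the sign of each gene it measured, which was 152 of the 155 with normexp and 126 and 25 with probes well above background on every array. The genes were called over these same arrays, so the kept signs are no independent support. Against 155 higher and 29 lower genes, quantile normalization gave 18 and 2, the authors' values 22 and 6, no filter on dim probes 0 and 0 (2552 and 1761 at an unadjusted p under 0.05), and only probes well above background on every array 254 and 79. Normexp gave 151 and 49. The letter as a random block gave 85 and 16, 18 units with letters averaged and ranked anew 653 and 537, arrays with titles of their own 0 and 0 (741 and 867 unadjusted), arrays with a shared letter 0 and 0 (1242 and 705), and comparisons within letters, added after seeing the data, 0 and 0 (899 and 299). Slides 1, 2 and 3 alone gave 0 and 0, 0 and 0, and 2 and 4. Slc17a7 as a continuous covariate gave 1577 and 1142, Ttr as a covariate 27 and 0, the striatal list level as a covariate 169 and 99, and the added share of spots well above background 0 and 0. Trended and robust moderation gave 257 and 64, array weights 2082 and 1719, and the omission of the 3 dim arrays 24 and 1. With 1 array left out, the higher count ran from 0 to 715 and the lower from 0 to 552. The tool was limma throughout.

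The interaction count of 44 was 1 with quantile normalization, 0 with normexp, 0 with no filter, 433 with probes well above background on every array, 659 with slide as a block, 0 with the letter as a random block, 0 with the added share of spots well above background, 12 without the 3 dim arrays, and 0 to 2032 with 1 array left out. The cause of these shifts was not tested, apart from the fewer arrays or genes that some alternatives hold by construction.

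On slide 3 alone, where 1 low acute array meets 3 high ones, the named genes past the threshold that changed sign to negative were Tp53i11 -0.13, Syt17 -0.13, Cnrip1 -0.077, Nptxr -0.44, Ccdc85a -0.24, Vash1 -0.37, Nrn1 -0.15, Mef2c -0.30, Slc30a3 -0.089, Sv2b -0.30, Cux2 -0.20, C1ql3 -0.14, Bdnf -0.31, Gabra5 -0.25, Stx1a -0.14, Syt1 -0.029, Doc2a -0.17, Kcnj9 -0.19, Kcnc4 -0.23, Kcnip3 -0.32, Olfm1 -0.26, Cntnap4 -0.12, Rtn4r -0.35, Ttc9b -0.19, Tspan17 -0.22. Those that changed sign to positive were Ggh 0.14, Osbpl9 0.25, Entpd2 0.11, Tbc1d31 0.23, Errfi1 0.087, Hdac11 0.012, Paqr3 0.20, Zc3h10 0.025. No other alternative reversed a named gene past the threshold, and the treatment comparisons stayed at 0 with quantile normalization, normexp, no filter, probes well above background on every array, slide as a block and the letter as a random block. Of 31 list medians, 30 changed sign under at least 1 alternative. That of cortical glutamatergic neurons was -0.28 on slide 3 alone, 0.48 without the 3 dim arrays and 0.66 to 0.93 with 1 array left out. That of striatal projection neurons was 0.10 on arrays with titles of their own, 0.17 on slide 2 alone and -0.35 to -0.16 with 1 array left out, and presynaptic vesicle release was -0.16 on slide 3 alone. Replicate numbers were given in accession order and pair no arrays across treatment groups. The shared title letter, which pairs arrays within a group, was used as given above. Dim probes (Slc17a7 on 3 low arrays, Tbr1, Fap, Socs2) limit what the size of a difference means.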

Other observations

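Some receptor and channel genes that the lists did not hold were among the 155 higher on the arrays high in Slc17a7, and are named here after their values were seen. Chrna4, the alpha-4 subunit of nicotinic acetylcholine receptors, ran from -3.42 to -2.55 on the high arrays and from -5.14 to -3.20 on the low ones, a difference of 0.84 ± 0.18 (SE, 12 arrays a side). Chrna5, an accessory subunit of the same receptors, differed by 1.37 ± 0.32, with 2.33 in saline, 0.98 in acute and 0.80 in chronic arrays. Sstr3, a somatostatin receptor, differed by 0.88 ± 0.20 and by nearly the same in the groups, 0.92, 0.82 and 0.91. Crhr1, the main receptor of corticotropin-releasing hormone, differed by 0.46 ± 0.11, beside the binding protein Crhbp at 0.76. Lingo1, a partner of the Nogo receptor Rtn4r, differed by 0.87 ± 0.19, with 0.22 in acute arrays. Cacna1g, a T-type calcium channel, differed by 0.72 ± 0.16.

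Among the 29 lower genes were a growth factor and a neurotrophin receptor. Gdnf, the glial cell line-derived neurotrophic factor made in striatum, ran from -4.45 to -3.22 (median -3.89) on the high arrays and from -3.76 to -2.55 (median -3.32) on the low ones, so the ranges overlapped. It differed by -0.59 ± 0.14. Ntrk3, the receptor of neurotrophin-3, ran from 0.55 to 1.33 and from 0.90 to 1.48 and differed by -0.37 ± 0.09. In acute arrays these differences were -0.16 and -0.12. All genes of both paragraphs passed with all 24 arrays (limma adjusted p between 0.0433 and 0.0498 for the 184), and they share the dependence on single arrays described for those 184.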
